A study of Mus musculus with 200 samples.

Results

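Plac1 (placenta specific 1) is an X-linked gene of the trophoblast lineage, and its RNA was followed here through every perturbation of a study of bivalent chromatin in mouse peri-implantation embryos. The member was found by the symbol Plac1 in the gene column of the expression tables. It is 1 gene of the 25006 or 25229 listed per table, and it was read in all 200 libraries. The embryoid body table has no gene column and was read in the row order of the screen table. The gene was chosen by its TPM differences between perturbed and control libraries, so those values are given below as a description with no test. Tests of Plac1 itself are given only for contrasts between control groups, whose values also entered those differences.

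Each library held about 10 to 100 cells, whose full-length cDNA was amplified for 17 cycles. The values are TPM (transcript abundance), a level scaled by gene length and library total, so levels of different genes in a library can be set side by side. The embryo libraries are labelled epiblast (Epi), except 6 labelled primitive endoderm (PrE) of the Suz12 Eed experiment, and controls are wild type. Per the series' design text, knockouts were made in embryos with C-CRISPR, embryos were cultured through the peri-implantation period, and E3.5 blastocysts were given GSK-J4 at 50 µM. GSK-J4 blocks Kdm6a and Kdm6b, enzymes that take methyl groups off H3K27. Treated epiblast was collected at E5.0, and in a separate table at E4.5, whose labels repeat no dose. Epiblast and PrE with a double knockout (KO) of Suz12 and Eed, subunits of Polycomb repressive complex 2 (PRC2), were compared with controls at E5.0. A screen of 40 knockouts in epiblast at E5.0 ran in 10 batches, each with its own controls. Zbtb17 (Miz1, a partner of Myc) was knocked out in epiblast at E4.5, degraded with dTAG, a ligand that marks a tagged protein for degradation, at E5.0, and knocked out in embryoid bodies (EB, aggregates of differentiating stem cells) sampled on days 0, 1, 2 and 3 beside wild-type EB. The titles of the knockout EB carry 1 line name. Groups hold 3 libraries, except 2 in the controls of batch 7, the Ascl2 knockout and every EB group. Batch 8 is marked 6.0 in its titles and E5.0 in its stage field. The labels give neither the sex of the embryos nor how many were pooled, and p-values measure the spread between the deposited libraries.

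Plac1 codes for a small secreted or membrane-associated protein with a zona pellucida-like domain. It is made by trophoblast, the outer lineage that forms the placenta, and mice that lack it have abnormal placentas. In the peri-implantation embryo the epiblast gives rise to the fetus, the extraembryonic ectoderm (ExE) and its derivatives to the placenta, and the PrE to the yolk sac. PRC2 writes the repressive mark H3K27me3, which on bivalent promoters lies beside the active mark H3K4me3, and Kdm6a and Kdm6b erase it.

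In the GENCODE vM21 annotation of GRCm38 (mm10), Plac1 (ENSMUSG00000061082.11) lies on the minus strand of chromosome X, from 53069995 to 53240111. Its 3 annotated transcripts start at 3 different first exons, share exon 2 (53098419 to 53098490), and carry the whole coding sequence, 173 codons, in exon 3 (53070313 to 53070831). The TPM values are per gene, so they do not show which start was used. The windows upstream of the distal and of the proximal RefSeq start are shown because bivalent chromatin is usually found on CG-rich promoters, and these windows hold the sequence before the starts. Both are from RefSeq on GRCm38.p6, read 5′ to 3′ on the minus strand, with CG dinucleotides in capitals. Bases inside an annotated exon were left out, which removed 1 base of the distal and 125 bases of the proximal window, so CG dinucleotides of the full proximal window are missing from the printed part. The distal window is chrX:53240112-53240360 and the proximal one chrX:53114531-53114655.
Plac1 distal start: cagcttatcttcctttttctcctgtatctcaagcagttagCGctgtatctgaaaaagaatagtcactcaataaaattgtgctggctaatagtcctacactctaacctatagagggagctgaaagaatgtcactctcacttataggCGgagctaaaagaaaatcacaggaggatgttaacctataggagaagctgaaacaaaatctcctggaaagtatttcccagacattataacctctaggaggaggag
Plac1 proximal start: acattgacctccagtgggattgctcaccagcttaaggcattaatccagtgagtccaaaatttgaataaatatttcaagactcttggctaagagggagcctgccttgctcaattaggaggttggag

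Over the full 250 bases before each RefSeq start, the distal window held 2 CG dinucleotides with a GC content of 40.4% and the proximal window held 4 with 48.8%. The median over 32851 RefSeq promoter windows of the same length was 6 CG. Windows with at most 2 CG made up 29% of all windows and those with at most 4 made up 44.4%. Both Plac1 windows lay below the median, at counts that are common. The letters TATATA, searched on both strands, began 27 bases before the proximal RefSeq start (position -27), inside the first exon of the GENCODE model, and were absent from the distal window. They occur in 5.25% of all windows. GCCNNNGGC, a motif of the Tfap2 family, and CACGTG, the E-box of Myc, were searched on both strands too and are in neither window, against 13.7% and 6.02% of all windows.

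The labels were checked against defining genes. In the 142 screen libraries outside batch 8, all labelled epiblast, the ExE transcription factor Elf5 ranged from 14.9 to 299 TPM with a median of 75.5. The keratin Krt8, also a member of the trophoblast lists, ranged from 136 to 4150 TPM. Both were thus present in every one of these libraries. Krt8 is not particular to ExE, since its mean was 141 TPM in the PrE controls, where Elf5 was at 0. The pluripotency factor Pou5f1 ranged from 0.106 to 138 TPM with a median of 39.9. Nanog, another epiblast factor, had a median of 2.38 TPM and was at 0 in 20 libraries, and Sox2 had a median of 2.96 TPM and was at 0 in 4, so these epiblast markers were low or at 0 in part of the libraries labelled epiblast. Batch 8 differed, with Pou5f1 at 301 to 586 TPM, Nanog at 27.4 to 110 TPM and Elf5 at 0.932 TPM or less, and Plac1 reached at most 1.03 TPM there. Controls labelled epiblast outside the screen held Elf5 and Krt8 too. In the Suz12 Eed, GSK-J4 E5.0, GSK-J4 E4.5 and dTAG controls, mean Elf5 was 79.1, 68.8, 34.9 and 21.4 TPM. Mean Krt8 was 324, 1125, 587 and 674 TPM in the same order, and mean Pou5f1 78.1, 61.5, 537 and 73.5 TPM. In EB, Elf5 was at 0 in 15 of 16 libraries. The 4 EB libraries of day 0 stood apart from the other 12, with Pou5f1 at 13.4 to 21.5 TPM against 1719 to 2443 TPM and with 5970 to 6983 genes at 1 TPM or above against 12807 to 13512. In bulk libraries of this kind, fewer cells of a type and less RNA per cell cannot be told apart. From 7236 to 11315 genes reached 1 TPM per screen library, 9465 to 11279 in the GSK-J4, Suz12 Eed and dTAG libraries, and 3986 to 4952 in the E4.5 Zbtb17 libraries. The read depth behind the TPM values is unknown, since TPM keeps none.

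Targeted transcripts gave a mixed check of the labels. Suz12 and Eed RNA fell in the double knockout, in Epi to 11.9 against 24.7 TPM for Suz12 and 45.2 against 179 TPM for Eed (limma, Benjamini-Hochberg adjusted p = 0.0294 and 3.87e-06). Of 41 targeted genes in the screen, 8 fell, 3 rose, 29 did not pass the test and 1 was not tested. The 3 that rose were Cxxc1, Myc and, in batch 7, Bend3, so these groups are called here the libraries labelled with those knockouts. A deletion need not lower the RNA that is left, and protein was not analysed here.

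Among the control groups, Plac1 was higher in PrE than in epiblast of the Suz12 Eed experiment. The epiblast controls were at 27.3, 26.1 and 27.7 TPM, and the PrE controls at 85, 109.5 and 86.7 TPM. All 3 PrE libraries lay above all 3 epiblast libraries. PrE control libraries 1 and 2 were nearly identical and were counted as 1, which gives 91.9 ± 7.48 TPM (SD, n = 2) against 27.0 ± 0.822 (SD, n = 3). The difference was 1.73 on the log2(TPM + 1) scale (SE 0.171, limma, adjusted p = 9.5e-07 over all genes). Both control groups also entered the differences by which Plac1 was chosen, so this test is not independent of that choice. All 20 PrE markers tested rose in the same contrast. Of all 11748 genes tested, 18.5% rose and 38% fell, or 2170 and 4463 genes, and 2969 and 3491 after quantile normalization. Of 19 stem and ExE genes tested, 1 rose and 14 fell in PrE against epiblast (median log2 -1.61, against -0.46 for all genes). Of 8 genes of differentiated trophoblast tested, 3 rose and 3 fell, and of 16 Rhox genes 1 rose and 14 fell. The placental lactogen Prl3d1 was at 17.7 ± 0.496 TPM (SD, n = 2) in PrE controls and 1.17 ± 0.605 TPM (SD, n = 3) in epiblast controls. Elf5 was at 0 in the PrE controls and at 79.1 ± 14.4 TPM (SD, n = 3) in the epiblast controls.

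Wild-type EB held almost no Plac1. The levels per library were 0 and 0.209 TPM on day 0, 0.188 and 0.206 on day 1, 0.752 and 0.473 on day 2, and 0.506 and 0.216 on day 3. These are at or below the level at which genes were tested, 1 TPM. Without that filter, limma gave adjusted p = 0.708 for day 1, 0.0537 for day 2 and 0.291 for day 3 against day 0, with log2 differences of 0.12, 0.55 and 0.30 (SE 0.218 each). No day passed the test. The day 0 libraries stood apart as described above, and the median gene was 2.80 log2 higher on each later day than on day 0, so these contrasts rest on unlike libraries. Without day 0, day 2 and day 3 differed from day 1 by 0.42 and 0.18 (SE 0.184 each, limma adjusted p = 0.101 and 0.485, no filter).

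In epiblast with the double knockout of PRC2 subunits, Plac1 was far above the controls. Against control levels of 26.1 to 27.7 TPM, the Suz12 Eed double knockout held 707, 775 and 1018 TPM. The groups were far apart, at 833 ± 164 against 27.0 ± 0.822 TPM (SD, n = 3 each), a log2 difference of 4.88. In PrE the double knockout held 107, 114 and 110 TPM against 85, 109.5 and 86.7 TPM. There the deposited libraries overlapped, and the log2 difference was 0.26, which became 0.03 after quantile normalization. The knockout epiblast thus held more Plac1 than the knockout PrE, whereas the control epiblast held less than the control PrE. The difference between the epiblast and PrE responses was not tested, since both values chose the gene.

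**Figure D1:**
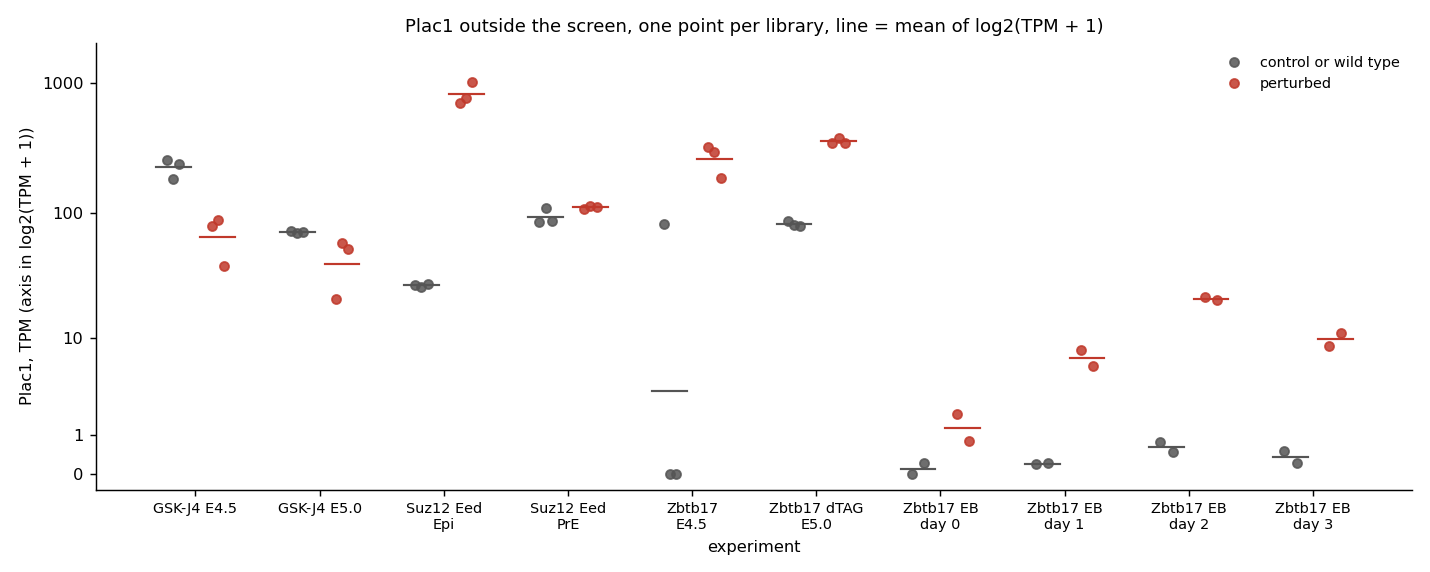
Plac1 level (TPM, axis in log2 of TPM + 1) in each library of the experiments outside the screen, with controls and perturbed libraries side by side. Points are libraries. The double-knockout epiblast lies at 707 to 1018 TPM against 26.1 to 27.7 TPM in its controls, while the PrE groups overlap.

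Other trophoblast genes were followed with lists of 19 stem or ExE genes, 34 genes of differentiated trophoblast and 32 Rhox genes, an X-linked cluster of homeobox genes. These lists were chosen with earlier results of these data known. A gene is called here at a Benjamini-Hochberg adjusted p below 0.05 in limma, and 4.47% of all 11250 genes tested rose and 4.64% fell in the double-knockout epiblast. Of the 19 stem or ExE genes tested, 5 rose and 1 fell (median log2 0.43, all genes -0.13), and of 12 differentiated genes tested, 9 rose (median log2 2.84). Krt19, a keratin of simple epithelia, rose to 233 ± 39.5 from 26.8 ± 8.17 TPM (log2 3.10) and Krt8 to 1388 ± 145 from 324 ± 42.9 TPM (log2 2.10). Prl3d1, placental lactogen of giant cells, rose to 172 ± 20.9 from 1.17 ± 0.605 TPM (log2 6.35). Bmp4, the ExE signal to the epiblast, fell to 37.3 from 74.8 TPM. Elf5 was at 101 ± 25.5 against 79.1 ± 14.4 TPM. Of 21 Rhox genes tested, 10 rose, among them Rhox9 to 399 ± 20.9 from 13.2 ± 4.85 TPM (log2 4.87) and Rhox6 to 631 ± 26.5 from 41.2 ± 3.93 TPM (log2 3.91). The Prl3d, Prl2c and Rhox2 to Rhox4 genes have near-identical copies, so the split of reads among their members is uncertain throughout.

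In the double-knockout PrE, 21.6% of 11354 genes rose and 5.21% fell, with 2451 higher and 591 lower as deposited and 1298 and 1026 after quantile normalization. Of 15 stem or ExE genes tested there, 6 rose (median log2 1.16, all genes 0.40), with Krt8 at 664 ± 43.8 TPM (SD, n = 3) against 141 ± 38.4 TPM (SD, n = 2). Rhox9 rose to 72.5 ± 13.2 from 16.7 ± 0.957 TPM. The keratins thus rose in PrE as in epiblast while the Plac1 groups overlapped. Of all 53 trophoblast genes 8 rose and 1 fell in PrE, and 5 rose without PrE control replicate 3. The summed level of all 53 trophoblast genes was 7690 to 8382 against 2466 to 2520 TPM in epiblast and 2345 to 2517 against 602 to 861 TPM in PrE, and 13 to 25 members were at 0 in every library of a group. The keratins Krt8 and Krt18 are members and made up much of these sums, and they enter every such sum below. Krt18 was at 2954 against 951 TPM in epiblast and at 1149 against 365 TPM in PrE. Mean Elf5 in PrE was 0.113 TPM with the knockout and 0 in controls. PrE markers summed to 376 to 501 TPM in the knockout epiblast against 427 to 660 TPM. The Y-linked gene Eif2s3y was at 16.2 ± 3.52 TPM in the knockout against 36.2 ± 3.22 TPM in control epiblast, and Xist at 2.44 ± 1.07 against 1.29 ± 0.2 TPM. The part of trophoblast content or of sex in the Plac1 difference was not tested.

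The libraries labelled Suz12 knockout had the highest Plac1 level of the screen. They held 4859, 4880 and 5125 TPM, and the batch 2 controls held 66.7, 103 and 104 TPM. The means were 4955 ± 148.1 and 91.2 ± 21.2 TPM (SD, n = 3 each), a log2 difference of 5.78. Suz12 RNA itself was at 4.5 against 25.5 TPM. The Ezh2 knockout, which removes the catalytic subunit of PRC2, held 679, 1049 and 1122 TPM against 128 to 164 TPM in the batch 5 controls (log2 difference 2.68), and its libraries also lay above every control library of the screen. In batch 3 the libraries labelled with knockout of Jarid2, a PRC2 cofactor, were lower, at 378 ± 9.78 against 624 ± 23.8 TPM (log2 -0.72). Those labelled with knockout of the PRC1 genes Cbx2, Cbx7 and Rnf2 were lower too, at 350 to 435 TPM. RNA of these targets did not pass the test. It was at 5.95 against 7.06 TPM for Jarid2 and 0.984 against 0.669 TPM for Cbx2. Cbx7 RNA was at 7.33 against 9.10 TPM and Rnf2 RNA at 31.2 against 53.0 TPM. Batch 3 had the highest control level of any batch, and each of these knockouts differed from its controls by less than the 2-fold used below.

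The other trophoblast genes are given for both knockouts, whose difference was not tested. In the Suz12 libraries 14.5% of 11057 genes rose and 7.41% fell, with 1606 higher and 819 lower as deposited and 1239 and 1286 after quantile normalization. There 9 of 14 differentiated genes rose and 1 fell, and Krt19 reached 1511 ± 121 from 17.6 ± 2.81 TPM (log2 6.35) and the prolactin-like Prl2c5 670 ± 54.4 from 0.0416 ± 0.072 TPM. Of 18 stem or ExE genes, 6 rose and 7 fell, with Bmp4 at 6.58 ± 3.97 against 135 ± 11.7 TPM. Elf5 was at 77.9 against 79.8 TPM. In the Ezh2 libraries 12.3% of 10338 genes rose and 14.5% fell. Of 14 differentiated genes 1 rose and 8 fell, and Prl3d1 dropped to 3.33 ± 2.39 from 1282 ± 131 TPM (log2 -8.35), while Plac1 was higher. Of the Rhox genes, 7 of 16 tested rose and 1 fell with Suz12 and 9 of 13 rose with Ezh2, and Rhox9 was at 1496 against 115 TPM and at 1209 against 24.1 TPM. PrE markers summed to 3908 to 4294 TPM in the Ezh2 libraries against 971 to 1148 TPM, and trophoblast genes to 3839 to 6439 against 5777 to 6088 TPM. With Suz12, trophoblast genes summed to 16278 to 17039 against 4816 to 5131 TPM, 9 of 19 PrE markers rose and 2 fell, and 1 of 14 epiblast markers rose and 7 fell. What these shifts contribute to Plac1 was not tested.

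The H3K27 demethylases gave values on either side of the controls. With GSK-J4 at E4.5, Plac1 was at 79.7, 88.2 and 38.6 TPM against 255, 184 and 241 TPM in controls. Every treated library lay below every control, at 68.8 ± 26.5 against 227 ± 37.5 TPM (SD, n = 3 each, log2 -1.78). At E5.0 with 50 µM the treated libraries held 21.0, 58.6 and 52.4 TPM against 72.8, 69.8 and 70.5 TPM. The groups again did not overlap, at 44.0 ± 20.2 against 71.0 ± 1.54 TPM (log2 -0.81), but 1 treated library carried much of the difference, which was -0.35 without treated replicate 1. The experiments differ in stage and their tables were normalized separately, so their sizes are not compared.

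In the screen, the Kdm6b knockout held 23.6, 11.5 and 12.6 TPM against 128 to 164 TPM in its controls, the lowest Plac1 level of batch 5. That is 15.9 ± 6.71 against 144 ± 18 TPM (log2 -3.17). The Kdm6a knockout stood on the other side, at 278, 339 and 400 TPM against 65.7 to 79.9 TPM (log2 2.21). Kdm6a and Kdm6b were run in batches with different controls, and their difference was not tested. The targeted RNA did not pass the test in either knockout. Kdm6b RNA was at 2.85 to 6.12 against 2.95 to 15.4 TPM (limma adjusted p = 0.217). Kdm6a RNA was at 1.93 to 3.42 against 4.72 to 5.90 TPM (limma adjusted p = 0.311). Krt19 was at 24.6 ± 7.13 against 242 ± 25.5 TPM with Kdm6b and at 207 ± 36.4 against 31.0 ± 5.89 TPM with Kdm6a. Prl3d1 was at 2.22 ± 2.68 against 1282 ± 131 TPM and at 1530 ± 482 against 8.01 ± 4.57 TPM.

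As background, 5.95% of 9948 genes rose and 16.8% fell with Kdm6b (592 and 1668, and 1131 and 934 after quantile normalization), and 5.58% of 10275 rose and 3.76% fell with Kdm6a (573 and 386, and 379 and 479). Of the differentiated trophoblast genes, 1 of 15 rose and 10 fell with Kdm6b, and 7 of 14 rose and 2 fell with Kdm6a. Of 17 stem or ExE genes tested in each, 1 rose and 3 fell with Kdm6b and 5 rose with Kdm6a. Eif2s3y was at 9.08 ± 4.26 TPM with Kdm6b against 40.6 ± 5.62 TPM, and Xist at 12.3 ± 2.51 against 2.95 ± 2.17 TPM, and the part of sex in the level of this X-linked gene was not tested. Trophoblast genes summed to 2475 to 2672 TPM with Kdm6b against 5777 to 6088 TPM. Of the PrE markers, 1 of 10 rose and 5 fell with Kdm6b, and 5 of 13 fell with Kdm6a.

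Under GSK-J4, few trophoblast genes passed the test at E4.5 and more at E5.0. At E4.5, 0.611% of 9982 genes rose and 0.541% fell, and 3 of 16 stem or ExE genes fell, namely the trophoblast factor Tfap2c (0.801 ± 0.896 against 20.5 ± 2.26 TPM), Krt7 (20.3 ± 12.2 against 127 ± 27.8 TPM) and Krt8 (361 ± 42.7 against 587 ± 43.0 TPM). Of the 3 differentiated and 4 Rhox genes tested at E4.5, 0 passed in limma. With any 1 library left out, between 0 and 2 trophoblast genes still passed. At E5.0, 16.6% of 10681 genes rose and 11.7% fell (1778 and 1245, and 1256 and 1540 after quantile normalization). There 7 of 17 stem or ExE genes fell, 6 of 9 differentiated genes fell and 1 rose, and 10 of 14 Rhox genes fell. Plet1, a surface protein of ExE, dropped to 45.5 ± 20.7 from 241 ± 18.5 TPM, Elf5 to 17.9 ± 2.55 from 68.8 ± 5.84 TPM, and the imprinted placental gene Phlda2 to 195 ± 14.9 from 1181 ± 65.7 TPM. PrE markers rose at E5.0, with all 18 of 18 tested higher (median log2 4.58) and a summed level of 7860 to 8682 against 887 to 933 TPM. The endocytic adaptor Dab2, a PrE gene, went to 526 ± 42.5 from 6.53 ± 1.5 TPM. Summed trophoblast levels were 3470 to 3590 against 5902 to 6112 TPM at E5.0 and 1548 to 1749 against 2028 to 2163 TPM at E4.5, and Xist was at 9.14 ± 1.07 against 2.67 ± 0.479 TPM at E5.0. The part of these shifts in the lower Plac1 was not tested.

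Zbtb17 perturbation came with higher Plac1 in every experiment in which it was done. With dTAG at E5.0 the treated libraries held 345, 377 and 349 TPM and the controls 86.4, 80.7 and 78.5 TPM. The spread within groups was small, at 357 ± 17.5 against 81.9 ± 4.06 TPM (SD, n = 3 each, log2 2.11). In batch 6 of the screen the libraries labelled Zbtb17 knockout held 323, 356 and 467 TPM against 130 to 150 TPM (382 ± 75.8 against 141 ± 10.2 TPM, log2 1.41). Again no knockout library fell within the control range. Eif2s3y was at 0.789 ± 0.772 against 21.4 ± 9.85 TPM in these libraries. Zbtb17 RNA did not pass the test in either, at 6.21 against 3.11 TPM with dTAG, which acts on protein, and 6.93 against 2.65 TPM in the screen. At E4.5 the libraries labelled Zbtb17 knockout held 324, 298 and 185 TPM, while the controls held 82.1 TPM in 1 library and were listed at 0 in the other 2. Since these libraries detected few genes, no mean or fold is given for them, and Pou5f1 was also listed at 0 in all 3 knockout libraries.

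Zbtb17 knockout EB started from low Plac1 and passed through a maximum on day 2. The levels were 1.87 and 0.777 TPM on day 0, 7.91 and 5.71 on day 1, 21.8 and 20.5 on day 2, and 8.66 and 11.1 on day 3. On every day both knockout libraries lay above both wild-type libraries, which did not exceed 0.752 TPM. The log2 differences were 1.04, 2.69, 3.78 and 3.00 from day 0 to day 3 (n = 2 each), and they understate the fold because of the pseudocount of 1. The day 0 libraries of both genotypes stood apart, as given above, and the maximum on day 2 holds among days 1 to 3 alone. Zbtb17 RNA fell on day 1 to 10.0 from 22.1 TPM, on day 2 to 13.4 from 21.9 TPM and on day 3 to 13.5 from 17.7 TPM.

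The lists differed among the Zbtb17 experiments. With dTAG, 7.2% of 10658 genes rose and 4.49% fell (767 and 479, and 515 and 526 after quantile normalization). There 10 of 16 stem or ExE genes rose, such as Gata3 to 53.4 ± 14.9 from 11.3 ± 5.55 TPM, while 4 of 12 differentiated genes rose and 6 fell, with Prl3d1 at 4.47 ± 2.3 against 324 ± 42.9 TPM. Plac1 was higher in the libraries in which this placental lactogen fell. Of all 53 trophoblast genes 14 rose with dTAG, and 7 to 10 with any 1 library left out. In the batch 6 libraries, in which 10.5% of 9815 genes rose and 19.9% fell, 9 of 16 stem or ExE genes rose, 8 of 11 differentiated genes rose and 1 fell, 7 of 15 Rhox genes fell, and Prl3d1 went to 2020 ± 600.2 from 69.3 ± 3.27 TPM. Krt8 rose there to 3519 ± 597 from 833 ± 166 TPM. Summed trophoblast levels were 15153 to 17686 against 4859 to 5623 TPM in batch 6, and 4266 to 4576 against 4103 to 4312 TPM with dTAG. PrE markers summed to 2332 to 2439 against 729 to 866 TPM with dTAG, where Dab2 rose to 75.5 ± 13.3 from 5.0 ± 0.991 TPM. The part of these sums in the Plac1 values was not tested.

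In the knockout EB the keratins were higher along with Plac1. Of all genes, 16.6% rose and 20% fell on day 1, 17.9% and 24.9% on day 2, and 20.9% and 34.3% on day 3, out of 13450, 13677 and 13366 tested. Of the stem or ExE genes, 13 of 18 rose and 1 fell on days 1 and 2, and 11 of 17 rose and 4 fell on day 3. PrE markers went the other way by count, with 10 of 13 lower and 1 higher on day 1, 11 of 19 lower and 4 higher on day 2, and 9 of 18 lower and 4 higher on day 3. Their summed level was 1855 to 1919 against 2169 to 2174 TPM on day 1, 1442 to 1461 against 1164 to 1188 on day 2 and 1137 to 1139 against 1044 to 1097 on day 3, and their part in the Plac1 values was not tested. Krt8 stood at 119 ± 4.03 against 8.78 ± 1.25 TPM on day 1 (SD, n = 2), 108 ± 0.57 against 28.3 ± 3.16 on day 2 and 98.2 ± 0.272 against 67.1 ± 3.72 on day 3. Eomes, a factor of trophoblast stem cells and of the primitive streak, fell on day 3 to 9.48 ± 0.598 from 86.7 ± 2.02 TPM. Rhox6 rose on day 3 to 67.8 ± 7.2 from 1.73 ± 0.586 TPM, when Plac1 was below its day 2 level. Elf5 did not exceed 0.0563 TPM in any EB library. The sum over trophoblast genes was 923 to 942 against 589 to 593 TPM on day 1, 832 to 855 against 533 to 546 on day 2 and 602 to 603 against 525 to 541 on day 3.

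**Figure D2:**
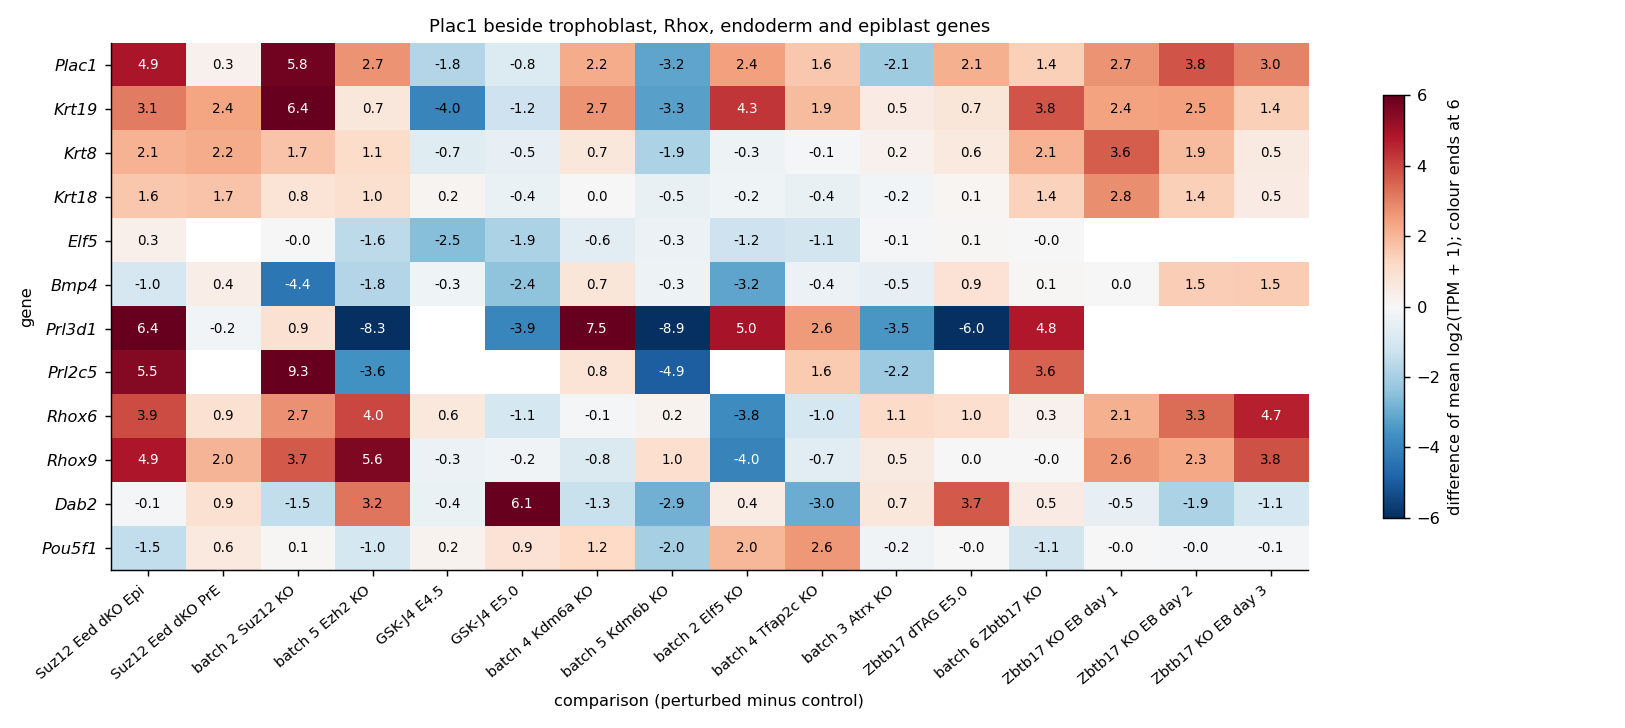
Difference of mean log2(TPM + 1), perturbed minus control, for Plac1 and 11 other genes (rows) in 16 comparisons (columns), with the colour scale ending at 6 in either direction. Blank cells did not pass the filter of 1 TPM. With Atrx, Plac1 is at -2.14 and Krt19 at 0.47 (limma adjusted p = 0.504), and Prl3d1 is lower with Ezh2 and dTAG, where Plac1 is higher.

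The screen showed Plac1 higher in most knockouts. In 30 of the 40 knockouts it was at least 2-fold higher with no overlap between knockout and control libraries, in 3 at least 2-fold lower, and in 7 neither. Over all 421614 pairs of gene and knockout, 5.53% were higher and 3.97% lower by this rule. Only 3 of 14392 genes were higher in at least 30 knockouts, namely BC051665 in 32, and Dppa1 and Plac1 in 30 each. Plac1 was chosen by differences of this kind, so its place in this count is a description and no test. With a 4-fold limit the counts were 23 higher and 3 lower, and with no overlap as the only condition 32 and 7. Knockouts of a batch share their controls, so these 40 comparisons are not independent.

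The level in the controls varied between batches. Mean control levels were 0.297 TPM in batch 8, 10.0 in batch 9, 15.6 in batch 10, 41.1 in batch 7, 71.8 in batch 4, 91.2 in batch 2, 141 in batch 6, 144 in batch 5, 183 in batch 1 and 624 in batch 3. Neighbours in this order overlapped for batches 9 and 10, 4 and 2, 6 and 5, and 5 and 1. The highest mean was 62.2-fold above the lowest without batch 8. Knockout means had quartiles of 157 and 553 TPM and a median of 364 TPM, against a median of 81.5 TPM for the control means. In 7 knockouts every library lay above the highest control library of the screen, 639.9 TPM in batch 3.

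In the batches with 4 or more knockouts, Plac1 lay on 1 side of the controls within each batch. All knockouts of batches 2, 4, 9 and 10 were at least 2-fold higher than their controls, which are the low or middle control levels, and 3 of 5 in batch 1, where the other 2 were higher by less. In batch 3, with the highest controls, all 5 knockouts were lower. The log2 differences ran from 2.77 to 5.77 in batch 10, from 3.02 to 4.06 in batch 9, from 1.14 to 5.78 in batch 2, from 1.15 to 3.09 in batch 4, from 0.88 to 2.60 in batch 1 and from -2.14 to -0.52 in batch 3. Batch 5 held both directions among its 3 knockouts, with Kdm6b at -3.17, Zfp57 at 1.89 and Ezh2 at 2.68. In the batches of 4 or more knockouts a single control level enters 4 to 8 comparisons, and which part of a difference comes from the controls and which from the knockout cannot be told apart.

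**Figure D3:**
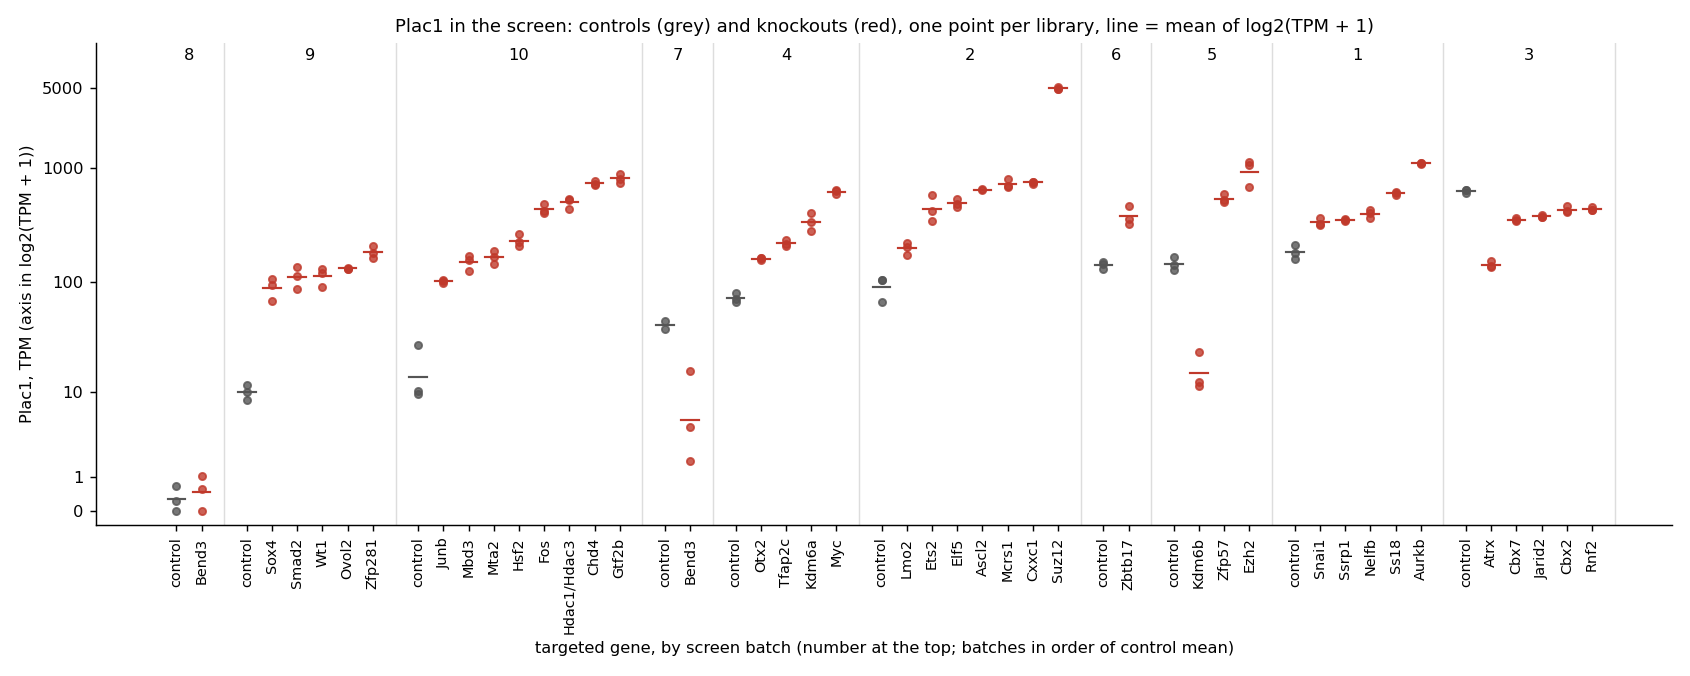
Plac1 level (TPM, axis in log2 of TPM + 1) in each screen library, by batch in order of the control mean, with controls beside the knockouts of the batch. Control levels rise from below 1 TPM in batch 8 to 624 TPM in batch 3, and the 3 Suz12 knockout libraries stand highest.

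Among the knockouts, the order from the top was Suz12 at 4955 TPM, Aurkb (a mitotic kinase) at 1103, Ezh2 at 950, the general transcription factor gene Gtf2b at 811, Cxxc1 (which brings H3K4 methyltransferase to CG islands) at 745, the remodeller Chd4 at 731 and Mcrs1 at 723 TPM. Suz12 did not overlap any neighbour, whereas each of Ezh2, Gtf2b, Cxxc1 and Chd4 overlapped the next in the order. The 3 Aurkb libraries were nearly identical (1090 to 1112 TPM) and count as 1. Because controls differ, the order of the log2 differences is another one. Suz12 at 5.78, Gtf2b at 5.77 and Chd4 at 5.62 were close together, the last 2 from batch 10 with controls at 10.1, 9.48 and 27.3 TPM. Their order rests on 1 control library, since without control replicate 3 Gtf2b was at 6.23 and Chd4 at 6.08. Gtf2b held 743, 800 and 890 TPM and Chd4 705, 722 and 767 TPM. Chd4 belongs to the deacetylase complex NuRD. Hdac1, Mta2 and Mbd3 are other NuRD genes, while Hdac3 is the deacetylase of the NCoR and SMRT complexes. The Hdac1 Hdac3 double knockout was at 499 ± 52.3 TPM, Mta2 at 165 ± 21.2 and Mbd3 at 149 ± 22.5 TPM, below Chd4 and above the controls. Chd4 and Hdac1 Hdac3 libraries did not overlap those of Mta2 or Mbd3. The Myc libraries held 586, 623 and 639 TPM against 65.7 to 79.9 TPM. Myc RNA was higher in these libraries (145 against 56.6 TPM).

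Plac1 was also higher in the libraries labelled with knockouts of trophoblast factors, as in every other knockout of batches 2 and 4, which shared their controls. The log2 differences ran from 1.14 to 5.78 over batch 2, with Elf5 at 2.44, and from 1.15 to 3.09 over batch 4, with Tfap2c at 1.60. Elf5 RNA fell to 38.6 from 79.8 TPM and Tfap2c RNA to 16.0 from 51.8 TPM in their knockouts. Ets2 RNA was at 2.01 to 12.9 TPM against 10.3 to 14.4 TPM, and Ascl2 RNA at 28.2 and 29.8 TPM against 4.59 to 8.74 TPM, above its controls and so against its label, though neither passed the test (limma adjusted p = 0.0899 and 0.0666). Elf5 knockout held 456, 480 and 537 TPM, Ets2 knockout 345, 417 and 582 TPM and the pair of Ascl2 libraries 636 and 646 TPM, against 66.7 to 104 TPM in the shared batch 2 controls. All were above every control. Tfap2c knockout held 207, 216 and 234 TPM against 65.7 to 79.9 TPM in batch 4. With Elf5, in which 11.4% of 10116 genes rose and 13.7% fell, 10 of 16 stem or ExE genes fell and 1 rose (median log2 -1.23, all genes -0.04), 6 of 11 differentiated genes rose and 3 fell, and 10 of 12 Rhox genes fell. Markers of other lineages moved too, with 14 of 18 PrE markers higher and 1 lower (summed level 2446 to 2616 against 945 to 971 TPM) and 6 of 14 epiblast markers higher and 1 lower. With Tfap2c, in which 8.2% of 10467 genes rose and 5.29% fell (858 and 554, and 628 and 794 after quantile normalization), 7 of 18 stem or ExE genes fell and 1 rose. Of 11 differentiated genes tested with Tfap2c, 4 rose and 2 fell (median log2 1.16), and of 14 Rhox genes 3 fell and 0 rose. There 8 of 13 PrE markers fell and 1 rose, although their summed level was 1233 to 1331 against 466 to 594 TPM, and 8 of 14 epiblast markers rose. The part of these markers in the Plac1 values was not tested.

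In 3 knockouts Plac1 was at least 2-fold below the controls of its batch, namely Kdm6b, described above, Bend3 in batch 7 and Atrx. Libraries labelled with knockout of Bend3, a repressor that binds CG-rich DNA, held 15.9, 1.73 and 4.43 TPM in batch 7, with 1 well above the other 2. Their controls held 44.6 and 37.7 TPM. Bend3 RNA was higher in these labelled libraries, as given above, and their pairs had r = 0.68 to 0.72 across genes. Of the genes tested there, 12 of 17 stem or ExE, 6 of 7 differentiated and 10 of 10 Rhox genes fell, and 0 rose. The median log2 over all genes was -0.32. Of the epiblast markers 8 of 13 rose and 1 fell, and of the PrE markers 1 of 11 rose and 8 fell. The part of these shifts in the Plac1 values was not tested. In batch 8 the Bend3 libraries held at most 1.03 TPM against at most 0.662 TPM, at which no difference was detectable. Atrx, a remodeller of heterochromatin, held 135, 137 and 151 TPM against 597 to 640 TPM in batch 3 (log2 -2.14), and 11 of 12 differentiated trophoblast genes tested fell with it, where 1.65% of 10776 genes rose and 1.85% fell (178 and 199, and 135 and 261 after quantile normalization). Of 17 stem or ExE genes 2 fell with Atrx, and of 10 Rhox genes 2 rose and 1 fell. The other knockouts of batch 3 shared these controls. With them 8 of 13 differentiated genes fell for Rnf2, 7 of 12 for Cbx2, 5 of 12 for Cbx7 and 4 of 12 for Jarid2. For Cbx2 and for Jarid2 1 rose. Just inside the 2-fold limit stood Nelfb at a log2 difference of 1.12, Lmo2 at 1.14 and Otx2 at 1.15, and just outside it Ssrp1 at 0.93, Snai1 at 0.88 and Cbx7 at -0.83.

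Over the screen as a whole, the 53 trophoblast genes gave 1126 tested pairs of gene and knockout, of which 284 (25.2%) rose and 186 (16.5%) fell, against 5.08% and 5.06% of all 421614 pairs in limma. More members rose than fell in 25 knockouts and more fell than rose in 15.

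The genes whose level followed Plac1 over the screen were sought among 7104 symbols with a mean of at least 5 TPM, as the Pearson correlation of log2(TPM + 1) after the mean of each batch was removed. It is a description over all screen libraries, which share batches, controls and trophoblast content. The median gene had r = 0.03, and 63 genes had r above 0.5. The highest were Dnase1l3 (0.73), a secreted nuclease, Mbnl3 (0.72), a splicing factor gene on X, Krt19 (0.70), Fthl17a (0.69), a ferritin-like gene on X, Serpinb9b (0.68), Entpd1 (0.67), Anxa1 (0.66) and Krt8 (0.65). Without the 3 Suz12 libraries these were 0.69, 0.68, 0.67, 0.66, 0.66, 0.73, 0.64 and 0.61. Over the 36 libraries of the other embryo tables, centred on each table, they were 0.71, 0.44, 0.53, 0.46, 0.46, 0.43, 0.47 and 0.74. These 36 include the E4.5 Zbtb17 libraries, which detected few genes and listed Plac1 at 0 in part of the controls. Epiblast and PrE of the Suz12 Eed table were centred on 1 mean, with the nearly identical PrE controls counted singly. Values without these libraries are not given. The lowest were Ly6a (-0.50), the histone genes H2ac6 (-0.49) and H2ac4 (-0.49), and Esco2 (-0.48), and in the other tables these were at 0.10, 0.17, 0.15 and -0.21.

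**Figure D4:**
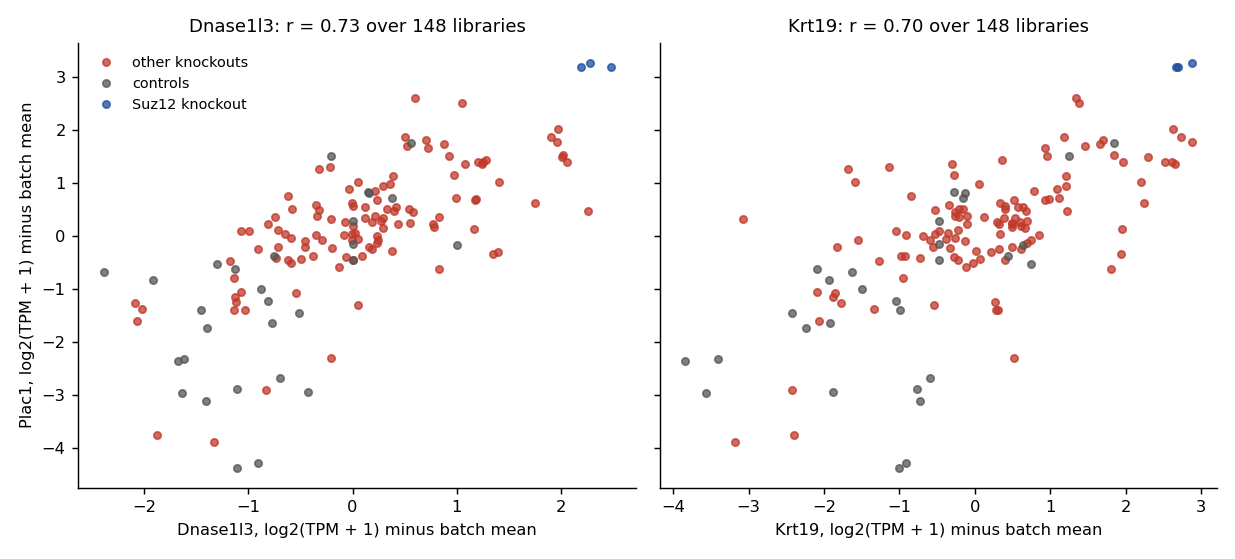
Plac1 against Dnase1l3 (left) and Krt19 (right) in the screen libraries, as log2(TPM + 1) minus the mean of the batch. Grey points are controls, red points knockouts and blue points the 3 Suz12 knockout libraries, which lie at the upper right end in both panels.

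Dnase1l3 shows the likeness in values. It was at 285 ± 29.8 against 17.4 ± 0.382 TPM with Suz12 knockout, 41.9 ± 15.3 against 3.28 ± 1.97 in the double-knockout epiblast, 105 ± 32.1 against 7.94 ± 4.04 with Zbtb17 knockout and 20.0 ± 2.48 against 5.68 ± 2.32 TPM with dTAG. In EB it stayed below 1 TPM, where Plac1 reached 21.8 TPM. Anxa1, a phospholipid-binding protein, rose in EB on day 2 to 56.2 ± 0.0233 from 9.19 ± 0.475 TPM, and in the Suz12 knockout to 515 ± 33.7 from 6.79 ± 7.41 TPM. Entpd1, an ectonucleotidase, was at 41.6 ± 8.45 against 39.7 ± 7.96 TPM with Suz12 knockout, where Plac1 was highest.

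Neighbouring genes on X were read beside Plac1. The noncoding gene C430049B03Rik (53055046 to 53057190), next to Plac1 on its 3′ side, rose in the double-knockout epiblast to 9.58 ± 0.478 from 0.7 ± 1.1 TPM (log2 2.82, limma adjusted p = 4.71e-04) and in the Suz12 knockout to 43.4 ± 5.85 from 6.31 ± 1.7 TPM (log2 2.62). It was at 2.11 ± 1.08 against 0.323 ± 0.168 TPM in knockout EB on day 2 (log2 1.2, limma adjusted p = 0.00199). With dTAG, where Plac1 was also higher, it was at 4.75 against 2.54 TPM (log2 0.70, limma adjusted p = 0.338). Mospd1 (53344598 to 53370502) rose in the double-knockout epiblast and in the Suz12 knockout, to 36.1 ± 4.08 from 19.5 ± 2.24 TPM and to 73.6 ± 13.2 from 21.0 ± 5 TPM, and was at 3.75 against 3.90 TPM in EB on day 2 and 28.6 against 21.4 TPM with dTAG (log2 -0.05 and 0.38, limma adjusted p = 0.855 and 0.419). Fam122b (53243415 to 53269805), which starts upstream of the distal Plac1 start, was at 7.36 ± 3.14 against 6.81 ± 1.14 TPM in the double knockout (log2 0.04, limma adjusted p = 0.964). Fam122c was listed at 0, and the microRNA genes Mir322, Mir503 and Mir351 had means of at most 0.0144 TPM in the double-knockout comparison. Gm28730, Gm23718 and Gm14585 were not analysed here.

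The protein relatives of Plac1, the oocyte-secreted proteins Oosp1, Oosp2 and Oosp3, were absent from most libraries. They were at 0 in every library of 62, 64 and 63 of the 70 groups. Outside screen batches 5 and 6 they did not pass 0.238, 0.882 and 0.226 TPM. In the batch 5 controls 1 library held 185, 33.5 and 129 TPM, and the Ezh2 knockout means were 42.7 ± 40.7, 5.94 ± 5.51 and 28.7 ± 29.5 TPM, while Plac1 was at 128 to 164 TPM in all 3 of those controls. With Kdm6b, where Plac1 was also lower, Oosp1 fell to 3.07 from 63.7 TPM and Oosp3 to 3.44 from 44.0 TPM (limma adjusted p = 0.00263 and 0.0127). Those falls rest on 1 control library, with adjusted p = 0.706 and 0.943 without control replicate 2 and 0.401 and 0.501 in a fit of batch 5 alone.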

How the data were processed

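The authors deposited TPM per gene in 7 tables over 200 libraries. HISAT2 2.2.1, StringTie 2.2.1, Cufflinks and mm10 are named, without their roles, per the submitters' processing notes. The embryoid body table has no gene column, and it was read in the row order of the screen table. TPM columns summed to between 984852 and 993453. No read counts were used, so no count test or counting interval is given, and the depth is unknown.

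Values were analysed as log2(TPM + 1) with limma 3.58.1 (trend) in R 4.3.3, each table in 1 fit without a replicate block. A gene was tested where the number of libraries with 1 TPM or above was no less than the size of the smaller group, with Benjamini-Hochberg adjustment over all of them in each contrast and a threshold of 0.05. The fit was tested on simulated data. Descriptions used Python 3.11.15, pandas 2.3.3 and numpy 2.4.6. A Plac1 level in a perturbed group was called higher or lower when it differed at least 2-fold on TPM + 1 with no overlap, and overlap was read from the deposited libraries.

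Plac1 and the gene lists were chosen with earlier results of these data known, and the lists are no independent evidence. Named genes were Plac1, the targeted genes, the 8 most and 4 least correlated genes with a mean of at least 5 TPM, up to 4 passing members of a list with the largest change, the 5 nearest genes on each side and the protein relatives. Krt8, Krt19, Elf5, Bmp4, Prl3d1, Rhox6, Rhox9 and Dab2 were followed through the comparisons, also where they fall outside that rule, and were chosen after their values were seen. BC051665 and Dppa1 were also named after their values were seen.

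PrE control libraries 1 and 2 of the Suz12 Eed table (r = 0.994 across genes) and the 3 Aurkb libraries were nearly identical and were counted as 1 each, without an SD for Aurkb. Other embryo pairs had a median r of 0.95. Same-numbered libraries deviated together, with every pair over 0.1, in 1 of 53 comparisons, the Suz12 Eed epiblast. Alternatives were a pseudocount of 0.1, quantile normalization, no filter, the replicate number as a block, a fit of each screen batch alone, a fit of EB days 1 to 3 alone (chosen after seeing the data), other limits in the screen and each library left out.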

Additional observations from a re-analysis of the deposited data

How the results depend on the processing

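Of 323 alternatives to the results that answer a comparison, 272 were classed as unchanged. A difference was so classed if it kept its direction and its side of the threshold or moved by less than the replicate spread. A count of genes or knockouts was judged by its ratio to the main count instead, with the limit named for the block below. Of 320 for single knockouts 308 moved by less than the replicate spread, and 0 reversed. Bend3 in batch 8, whose groups overlapped, could not count as reversed. The cause of the changes below was not tested. The wild-type EB differences against day 0, none of which passed the test, became -0.64, -0.32 and -0.41 for days 1, 2 and 3 after quantile normalization, and the day 1 value ranged from -0.014 to 0.26 with a library left out. Quantile normalization moved the Plac1 difference to 0.029 in the double-knockout PrE and to 2.03 with dTAG. In Zbtb17 knockout EB it gave 2.48, 2.14, 3.16 and 2.45 for days 0 to 3, and a pseudocount of 0.1 gave 2.90, 4.52, 4.92 and 4.50. With no overlap as the only condition, 7 screen knockouts were lower.

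Counts over the 53 trophoblast genes moved as follows. In the double-knockout epiblast the 1 lower gene became 0 without a filter, with a pseudocount of 0.1 and with quantile normalization, and 0 to 1 with a library left out. In PrE the 8 higher genes became 5 with quantile normalization and 5 to 9 with a library left out, and the 1 lower gene 0 to 1. Without PrE control replicates 1 and 2, counted as 1, it was 0. With GSK-J4 at E4.5 the 3 lower genes became 0 without a filter, 1 with a pseudocount of 0.1 and 0 to 2 with a library left out. At E5.0 the 1 higher gene became 0 without a filter and with quantile normalization, and 0 to 1 with a library left out. With dTAG the 14 higher genes became 8 without a filter, 7 with quantile normalization and 7 to 10 with a library left out. In EB the 17 higher genes of day 1 became 10 with quantile normalization and 11 to 14 with a library left out, and the 5 lower genes of day 3 became 3 and 3 to 5. A fit of EB days 1 to 3 alone, chosen after seeing that the day 0 libraries stood apart, left 17, 20 and 17 trophoblast genes higher and 3, 2 and 5 lower, the counts of the fit of all days. Of all genes in EB, quantile normalization left 1374 higher and 1509 lower on day 1 (2227 and 2689 as deposited), 1899 lower on day 2 (3406) and 2670 lower on day 3 (4581).

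With the replicate number as a block, the Plac1 difference between control PrE and control epiblast was 1.75 (limma adjusted p = 3.98e-07), 15 trophoblast genes rose in the double-knockout epiblast, and 319 screen pairs rose and 202 fell. The block changed no call of Plac1 and moved none of the trophoblast counts it was run on by over 1.5 times. No paired analysis was possible for dTAG because treated and control libraries share no numbers. Fold changes of genes near 1 TPM are limited by the pseudocount and by the unknown depth.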
